A study of Mus musculus with 3 samples.

Results

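Respiratory complex I is read here through 36 nuclear genes that encode NADH dehydrogenase subunits. They were chosen by symbol, from the RefSeq accession that each non-control probe of the array carries, and no measured value was used to choose them. The array holds 36638 genes or unnamed transcripts, of which 7424 were bright enough to be tested, and 31 of the 36 subunit genes were among those tested. The samples were total RNA of a muscle called SOL in the labels, taken here as soleus, from male C57BL/6 mice at 8 weeks of age on a regular chow diet. Mice with the genotype Mettl21cLacZ/LacZ (KO) were set against wildtype mice (WT), 3 of each, on 3 arrays with 2 colours. Every array carried 1 WT sample in Cy3 (green) and 1 KO sample in Cy5 (red). The dyes were never exchanged, so a dye preference of a probe and a difference between the genotypes cannot be told apart. The labels name the KO allele and give no Cre, promoter or clone.

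Complex I takes electrons from NADH and hands them to ubiquinone, and it pumps protons across the inner mitochondrial membrane as it does so. It is shaped like an L. The peripheral arm, which reaches into the matrix, holds the NADH site and the chain of iron-sulphur clusters. The membrane arm holds the proton pumps, whose core parts are encoded by mitochondrial DNA. The accessory subunits are needed for the assembly and stability of both arms, and soleus, rich in oxidative fibres, is a muscle with many mitochondria. Ndufa4, long listed with complex I, is now counted with complex IV.

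The probes for Mettl21c and for muscle genes served as a check of the labels. The log2 ratio of Mettl21c fell by 2.45, with an SD of 0.48 over 3 arrays and a limma adjusted p of 0.0175. The size of that ratio depends on the offset of 50 added to each signal, because the KO spots were near background: the processed signals were 7527, 3677 and 4486 in WT and 200.4, 32.3 and 45.4 in KO, and gave a mean of -6.23. Of 18 markers of slow and fast fibres, 14 were tested, among them the slow fibre genes Myl2, Myl3, Tnnt1 and Tnnc1. Myh7, the slow myosin heavy chain, and Tnni1 were not tested. Between 20.4% and 23.6% of the 59305 non-control spots of an array were well above background in the WT channel, and between 22.5% and 22.9% in the KO channel. With 3 arrays, an exact two-sided sign-flip test of 1 gene cannot give a p below 0.25, so each call rests on the limma fit over all genes. Having 3 arrays limits how precise any value can be.

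Array 3 stood apart from arrays 1 and 2 in the brightness of its spots. The layout was divided into 48 blocks, each 48 rows high, and the brightness of the spots was correlated between arrays within each block. For arrays 1 and 2 the correlation ran from 0.88 to 0.99 over the blocks. For arrays 1 and 3 it ran from 0.17 to 0.97, and in 25 blocks that held 51.5% of the spots array 3 correlated at under 0.9 with both other arrays. These are called low blocks here. The low blocks lay mostly on 1 side of the array, as the map of block correlations shows. Of the 31 tested subunit genes, 8 had their spot in a low block, namely Ndufa1, Ndufa8, Ndufa9, Ndufb10, Ndufb4, Ndufb7, Ndufs4 and Ndufv2. In the 5 blocks where arrays 1 and 3 correlated at under 0.5, array 3 correlated at 0.30 with array 1 at the same position. With the spot of array 1 that lay 1 row before, the correlation was 0.39. Whether each spot of the low blocks was read at the place of its own probe was not tested. The array 3 values of these 8 genes may therefore not belong to their probes. Ndufc1, outside the low blocks, was also dimmer on array 3, with a log2 brightness difference of -1.37. Values without array 3 are given for some other genes and for the genes described in full, except Ndufs7, Ndufa12, Ndufa11 and Ndufc2.

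**Figure D1:**
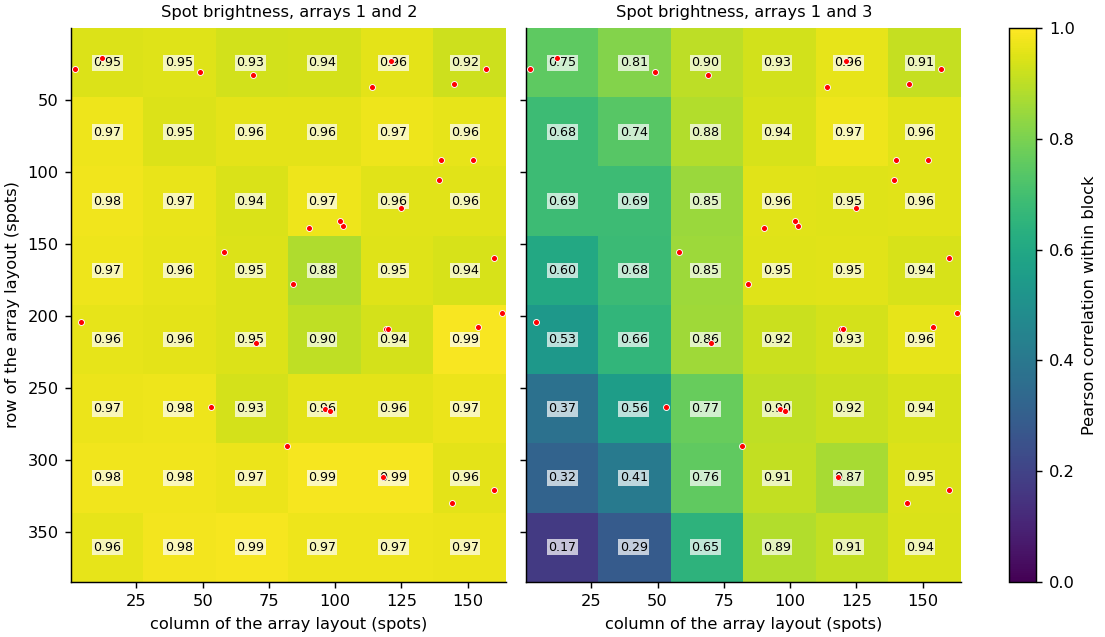
Pearson correlation of spot brightness within 48 blocks of the array layout, for arrays 1 and 2 (left) and arrays 1 and 3 (right), with rows and columns in spots and red points at the spots that represent the tested complex I genes. Correlations run from 0.88 to 0.99 on the left and from 0.17 to 0.97 on the right, with the lowest values at low column and high row numbers.

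The first question was whether any complex I gene differed between KO and WT soleus. Among the 31 tested genes 0 passed a limma adjusted p of 0.05, where 0.0404% of all genes tested did. At an unadjusted p under 0.05 in limma, 4 genes were higher in KO (Ndufs6, Ndufb8, Ndufa1 and Ndufa12), against a background of 5.90% of all genes, and 2 were lower (Ndufv1 and Ndufa10), against 7.53%. Together these 6 genes stood against a background of 13.4%, which holds for the reported settings only. The count was 3 without array 2, 3 with no background subtraction and 0 with the processed signals. It was 7 without array 1, 8 of 35 without array 3, 9 with array weights and 10 of 34 with no filter on dim probes. The share of all genes at that p was not counted in these settings, so these counts have no background beside them. With the low blocks of array 3 left out, 7 of 35 were higher and 4 lower, where 566 of 8886 genes were higher and 792 lower. The ratio was above 0 on all 3 arrays for 9 genes (background 17.5%) and below 0 on all 3 for 4 genes (background 18.3%). Mean log2 ratios of KO over WT ran from -0.31 for Ndufa10 to 0.53 for Ndufs6. The median over the 31 genes was 0.06, beside a median of -0.0027 over all genes tested.

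By array the median of the complex I genes was -0.05, 0.02 and 0.13 on arrays 1 to 3, so it did not keep 1 sign. The median SD between arrays was 0.16 for these genes. It was 0.12 for all genes tested, whose median intensity was lower (6.86 against 8.82). For the tested genes of complexes II to V it was 0.08, 0.16, 0.15 and 0.18. The mean ratio was positive for 21 of 31 genes (background 49.1%), but for 0 of 31 when each array was centred on all its spots with no loess and for 4 of 31 when centred on the tested probes. Centring on all spots moved the median of all genes tested to -0.45 and that of the complex I genes to -0.72. In that setting the median difference of the complex I genes from genes of similar brightness was 0.015. The processed signals and the series matrix, to which no further loess was applied, kept 20 of 31 positive with a median of 0.07, and loess on spots well above background kept 17 with a median of 0.04. Without array 3 the median was 0.05 over the 35 genes then tested, and without array 1 it was 0.14 over the 31. Across the 31 genes the ratios of arrays 1 and 2 correlated at 0.60, those of arrays 2 and 3 at 0.47 and those of arrays 1 and 3 at -0.07, which describes genes that share the same 3 hybridisations.

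**Figure D2:**
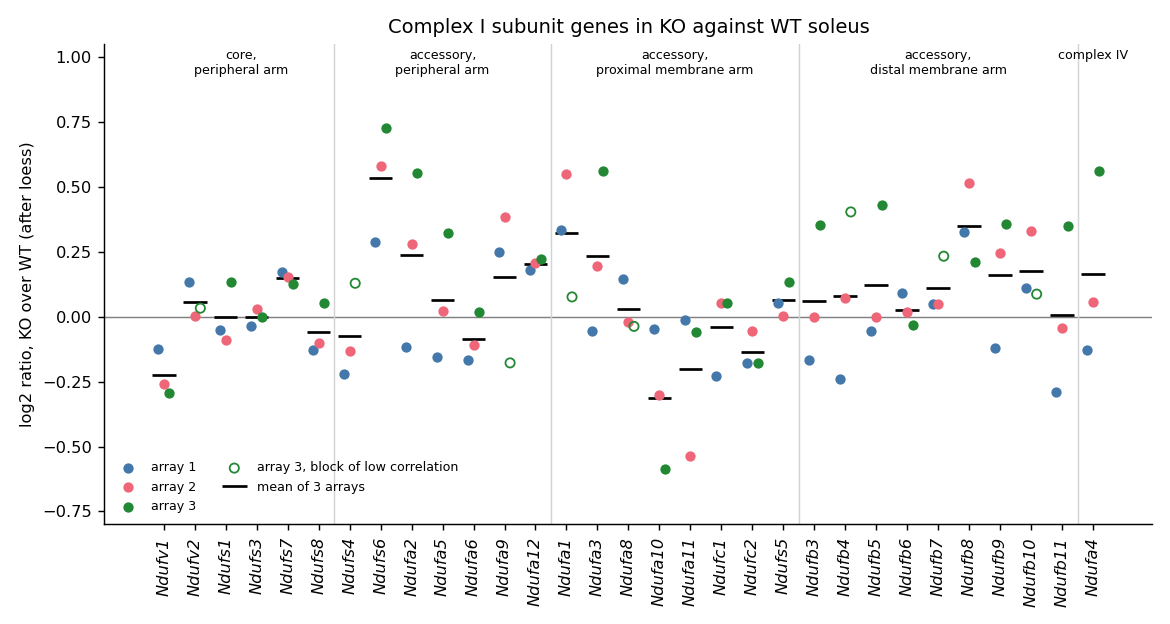
Log2 ratio of KO over WT for the 31 tested complex I genes on each of the 3 arrays (points, open where the spot of array 3 lies in a low block), with the mean as a bar, grouped by their place in the complex. The means run from -0.31 (Ndufa10) to 0.53 (Ndufs6), and without loess, with arrays centred on all spots, all 31 means were negative.

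The core subunits of the peripheral arm carry the cofactors, and all 6 listed were tested. Their median log2 ratio was -0.0025, with 2 positive and 4 negative means. Ndufv1, which binds NADH and flavin, had log2 levels of 9.29, 9.04 and 9.52 in the WT samples of arrays 1 to 3. Levels on this scale are channel values after loess and alignment of brightness between arrays, and serve to compare samples at 1 probe. In the KO samples Ndufv1 stood at 9.16, 8.78 and 9.23. The KO sample was the lower on every array, yet the ranges of the genotypes overlapped. Its mean log2 ratio was -0.23 (SD 0.09, n = 3 arrays, limma adjusted p = 0.256), or -0.19 without array 3.

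Ndufs7, which carries the last iron-sulphur cluster before ubiquinone, had ratios within a narrow range. Its WT levels were 10.78, 11.34 and 10.86 and its KO levels 10.95, 11.49 and 10.99. The ratios were 0.17, 0.15 and 0.13, the mean 0.15 (SD 0.02, limma adjusted p = 0.388). That sign did not hold: the mean was -0.06 with loess fitted only on spots well above background, and -0.09 with the scanner's processed signals. The other core genes had means from -0.06 (Ndufs8, an iron-sulphur subunit) to 0.06 (Ndufv2, the iron-sulphur partner of Ndufv1). Ndufs1, the largest of the core subunits, and Ndufs3 stood at -0.0030 and -0.0019.

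Ndufv2 was one of the genes whose spot was much dimmer on array 3. Its processed WT signals were 1440, 1424 and 84.3 and its KO signals 1449, 1341 and 252.1. The offset ratio of array 3 was 0.03, and the mean of arrays 1 and 2 was 0.07.

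Of 9 accessory subunits of the peripheral arm 7 were tested, with a median log2 ratio of 0.15 and 5 positive means (background 49.1%). That median was 0.08 without array 2, and 0.08 without array 3 over the 9 genes then tested. Ndufs6, a zinc-binding subunit of this arm, had WT log2 levels of 11.65, 11.90 and 11.54. Its KO levels were 11.94, 12.48 and 12.27. It was the only one of the 31 complex I genes whose 3 KO levels all lay above its 3 WT levels (background 4.0%), and for 0 genes did all lie below (background 4.51%). The log2 ratios were 0.29, 0.58 and 0.73, and the mean was 0.53 (SD 0.22, limma adjusted p = 0.0947, 95% interval 0.30 to 0.76), which is 1.45-fold. On the processed signals the genotypes overlapped, with 42255, 56272 and 47093 in WT and 42970, 64253 and 51708 in KO, and the mean log2 ratio was 0.12. Without array 3 the mean after loess was 0.43 (limma adjusted p = 0.124).

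Ndufa12, a subunit that joins late in assembly, had WT log2 levels of 10.42, 10.39 and 10.78 and KO levels of 10.60, 10.60 and 11. Its ratios of 0.18, 0.21 and 0.22 lay close together, although the levels of the genotypes overlapped. The mean was 0.20 (SD 0.02, limma adjusted p = 0.266), and the processed signals gave -0.01. Ndufa6, a small subunit that binds the acyl carrier protein, had WT levels of 7.25, 7.27 and 7.20 and KO levels of 7.08, 7.16 and 7.21, with a mean ratio of -0.09 (SD 0.10, limma adjusted p = 0.670), or -0.05 without array 1 and -0.14 without array 3.

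Ndufa5, of the same arm, was measured by 2 tested probes with opposite signs. The brighter gave WT levels of 8.43, 8.24 and 8.24, KO levels of 8.27, 8.26 and 8.57 and a mean ratio of 0.06 (SD 0.24, limma adjusted p = 0.844). The dimmer gave -0.04 (SD 0.08), with ratios of -0.04, 0.04 and -0.12 on arrays 1 to 3. The spot of that dimmer probe lost brightness on array 3, with a log2 difference of -1.13 from arrays 1 and 2. The brighter probe gave -0.07 without array 3 and 0.17 without array 1. Ndufs4, Ndufa2 and Ndufa9 had means of -0.07, 0.24 and 0.15, and none kept 1 sign on the 3 arrays. Without array 3 Ndufs4 stood at -0.18 and Ndufa2 at 0.08, and without array 1 they stood at -0.0015 and 0.42.

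Ndufa9, a subunit near the ubiquinone site, rested on a spot that was far dimmer on array 3. Its processed signals were 10681, 10700 and 454.3 in WT and 11111, 12762 and 550.4 in KO. The ratios after loess were 0.25, 0.38 and -0.18. Without array 3 the mean was 0.32 (limma adjusted p = 0.155), against 0.15 with it and 0.04 without array 2.

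The remaining genes of this arm, Ndufa7 and Ndufv3, were not tested because of an outlier flag on array 3. Ndufa7 gave 0.61 and 0.72 on arrays 1 and 2. Its probe was the brightest of the subunit genes, at an average log2 intensity of 12.8. Other genes of similar brightness had a median ratio of 0.51 in the fit without the low blocks of array 3, where Ndufa7 could be tested. The processed signals of Ndufa7, 80818 and 142556 in WT and 84519 and 134613 in KO on those arrays, gave log2 ratios of 0.06 and -0.08. The brighter probe of Ndufv3 gave -0.09 and 0.23, and its other probe was not well above background on all 3 arrays in either channel.

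In the alternative that leaves out the low blocks of array 3, chosen after seeing the data, genes are tested on 2 or 3 arrays and 35 complex I genes could be tested. There Ndufa7, at 0.67 over 2 arrays (limma adjusted p = 0.0283), and Ndufs6, at 0.48 (limma adjusted p = 0.0411), passed, among 100 of 8886 genes. When loess was also fitted only on spots well above background, Ndufa7 stood at 0.24 (limma adjusted p = 0.266) and Ndufs6 at 0.21 (limma adjusted p = 0.328). In that fit 0 complex I genes passed, and 1 of the 8886 genes was called.

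The proximal part of the membrane arm had 8 of 9 accessory genes tested, with 4 positive and 4 negative means and a median of -0.0064. Ndufa1, a small X-linked subunit, had WT log2 levels of 10.02, 9.84 and 9.78 and KO levels of 10.36, 10.39 and 9.86. The KO sample was the higher on each array, most narrowly on array 3, and the ranges overlapped. The ratios were 0.33, 0.55 and 0.08, with a mean of 0.32 (SD 0.24, limma adjusted p = 0.251), or 0.44 without array 3 (limma adjusted p = 0.104) and 0.21 without array 2 (limma adjusted p = 0.677).

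Ndufa10, a subunit related to nucleoside kinases, had the lowest mean of the complex I genes. Its WT levels were 8.15, 8.46 and 8.06, and its KO levels 8.10, 8.16 and 7.48. The KO sample of array 3 lay apart from the other 5 samples. The ratios of -0.05, -0.30 and -0.59 had a mean of -0.31 (SD 0.27, limma adjusted p = 0.290), which was -0.18 without array 3.

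Ndufa11, a membrane subunit, had WT levels of 9.04, 9.39 and 9.46 and KO levels of 9.03, 8.85 and 9.40. Its mean of -0.20 (SD 0.29, limma adjusted p = 0.503) came mostly from array 2, where the ratio was -0.53, against -0.01 and -0.06 on the others, and without array 2 it was -0.04. Ndufc2 had WT levels of 8.37, 8.26 and 8.60, KO levels of 8.19, 8.20 and 8.42, and a mean ratio of -0.14 (SD 0.07, limma adjusted p = 0.450). With the processed signals, where array 2 gave 0.67, the mean of Ndufc2 was 0.16.

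Ndufa3, among the brightest of the tested subunit genes, had WT levels of 11.55, 11.23 and 11.65 and KO levels of 11.49, 11.43 and 12.21. The KO sample of array 3 was the highest of the 6. The mean ratio was 0.23 (SD 0.31, limma adjusted p = 0.455), 0.07 without array 3 and 0.38 without array 1. Ndufa8 and Ndufs5, both of the intermembrane space face, stood at 0.03 and 0.06, and Ndufc1 at -0.04. Without array 3 these 3 stood at 0.06, 0.03 and -0.09. Ndufa13 was not tested because of an outlier flag on array 3 and gave 0.03 and 0.31 on the other arrays.

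In the distal part of the membrane arm 9 of 10 accessory genes were tested, and all 9 had a positive mean after loess (background 49.1%), with a median of 0.11. Against the median of genes of similar brightness, Ndufb7, Ndufb9 and Ndufb11 differed by -0.10, -0.02 and -0.03, and the other distal genes lay above. The processed signals gave -0.01 for Ndufb7 and -0.04 for Ndufb11, and positive means for the others. Without array 1 that median was 0.21, and without array 3 it was 0.06 over the 10 genes then tested. With arrays centred on all spots and no loess that median was -0.77, and centred on the tested probes it was -0.33. Their medians were -0.06, 0.05 and 0.35 on arrays 1 to 3. Of the 9 genes 3 were above 0 on all arrays (background 17.5%).

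Ndufb8, whose protein is widely used as a marker of assembled complex I, had WT log2 levels of 10.93, 10.59 and 11.16 and KO levels of 11.26, 11.11 and 11.38. The KO sample was the higher on each array, and the WT sample of array 3 lay above the KO sample of array 2. The ratios were 0.32, 0.51 and 0.21, with a mean of 0.35 (SD 0.15, limma adjusted p = 0.150). Without array 3 the mean was 0.42 (limma adjusted p = 0.109), and the processed signals gave 0.18.

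Ndufb11 and Ndufb5 each had 2 tested probes that differed in sign. The brighter Ndufb11 probe had WT levels of 9.87, 9.63 and 9.87 and KO levels of 9.58, 9.58 and 10.22, with a mean ratio of 0.0055 (SD 0.32, limma adjusted p = 0.991), and the dimmer gave -0.13 (SD 0.14). The brighter Ndufb5 probe had WT levels of 8.26, 8.37 and 8.14 and KO levels of 8.21, 8.37 and 8.57. Its mean was 0.12 (SD 0.27, limma adjusted p = 0.677), and that of the dimmer probe was -0.03 (SD 0.04). For both genes the positive mean came from array 3, where the ratios were 0.35 and 0.43. Without array 3 the mean of Ndufb11 was -0.17, and Ndufb5 was then represented by its other probe, at -0.05. The 2 tested probes of Ndufb6 stood at 0.03 and 0.09.

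The other distal genes ranged from 0.06 (Ndufb3) to 0.18 (Ndufb10), with Ndufb4 at 0.08, Ndufb7 at 0.11 and Ndufb9 at 0.16. Without array 3 Ndufb3 stood at -0.08, Ndufb10 at 0.22, Ndufb7 at 0.05 and Ndufb9 at 0.06, and without array 1 Ndufb3 stood at 0.18, Ndufb4 at 0.24 and Ndufb9 at 0.30. Ndufb4 also had a brighter probe that was not tested, with processed WT signals of 7211, 6616 and 88.8 and KO signals of 6476, 7765 and 64.1. Ndufb2 was well above background on 2 arrays only and was not tested, with ratios of 0.06, 0.12 and 0.06. Ndufab1, the mitochondrial acyl carrier protein, was on no array well above background. Ndufa4, the subunit now placed in complex IV, stood at 0.16 (SD 0.36, limma adjusted p = 0.652), with 0.56 on array 3 and -0.04 without it.

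**Figure D3:**
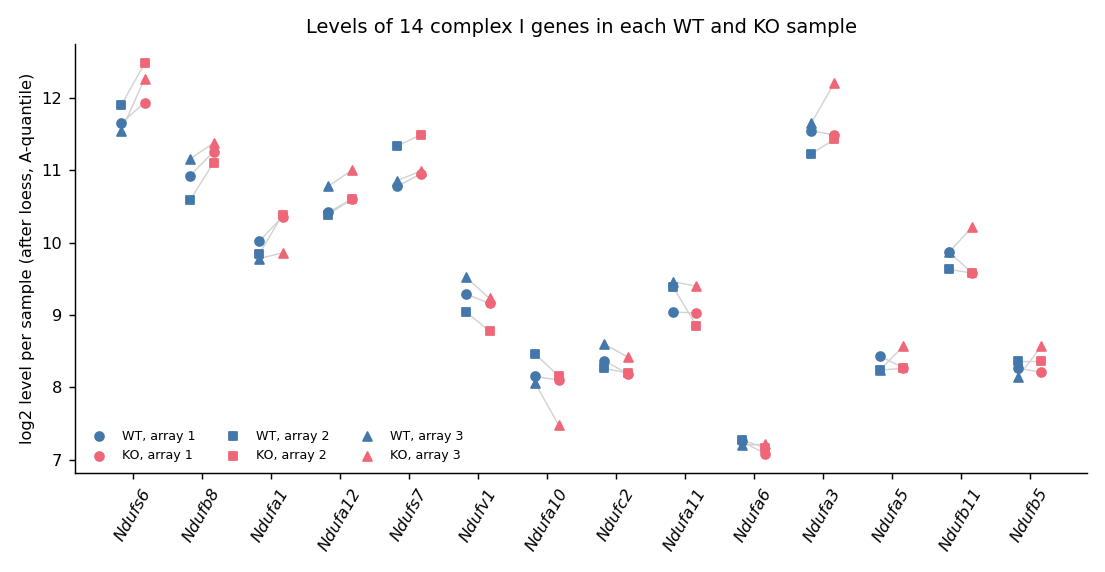
Log2 level after loess and alignment of brightness between arrays, in each of the 3 WT (blue) and 3 KO (red) samples, for 14 complex I genes, with lines joining the samples of 1 array and marker shapes giving the array. Only for Ndufs6 do all 3 KO values, 11.94 to 12.48, lie above all 3 WT values, 11.54 to 11.90.

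The second question was how the complex I genes compared with other genes whose probes were of similar brightness. Probes of these genes were bright, with a median average log2 intensity of 8.82 against 6.86 for all genes tested. Brightness depends on the probe as well as on the amount of transcript, so it was not read as transcript amount. After loess the ratio still moved with brightness. Among genes at an intensity of 11 or more, 91.5% of 142 other genes had a positive ratio, with a median of 0.25, and the 5 complex I genes there (Ndufs6, Ndufa3, Ndufs7, Ndufb8 and Ndufb7) were all positive with a median of 0.23. From 10 to 11 the values were 75.0% of 240 other genes with a median of 0.14, and 3 of 3 complex I genes (Ndufa12, Ndufb9 and Ndufa1) with a median of 0.20. From 9 to 10 the medians were 0.01 for 472 other genes (52.5% positive) and 0.0012 for 6 complex I genes (3 positive). From 8 to 9 the other genes lay mostly below 0, with 36.5% of 884 positive and a median of -0.05, while 5 of 8 complex I genes were positive with a median of 0.04. From 7 to 8 the median of the other genes was -0.05 and that of 5 complex I genes was -0.06. Under 7 the other genes had a median of 0.0073 with 53.5% of 4063 positive, and 3 of 4 complex I genes were positive with a median of 0.04.

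Each complex I gene was then set against the median of the other genes within 0.5 of its intensity. The median of these differences was 0.02, and it was -0.04, 0.05 and 0.03 on arrays 1 to 3. Of the 31 genes 18 lay above their neighbours' median. Ndufs6 was 0.28 above, Ndufa1 0.25 and Ndufb8 0.13, while Ndufa12 was 0.02 above. Ndufs7, at 0.15, was 0.07 below its neighbours, whose median was 0.22. Ndufa10, Ndufv1 and Ndufa11 lay below by -0.25, -0.21 and -0.19. Ndufa2, with a thioredoxin-like fold, and Ndufa4 lay 0.27 and 0.22 above.

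**Figure D4:**
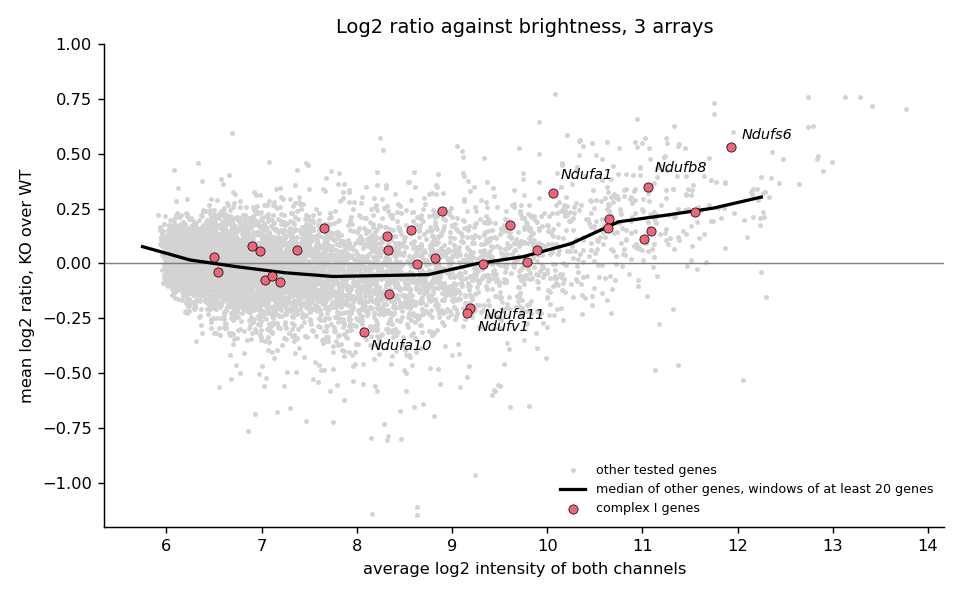
Mean log2 ratio of KO over WT against the average log2 intensity of both channels for other tested genes (grey) and 31 complex I genes (red), with the median of the other genes as a black line. The line rises above 0 at intensities over 10, where all 8 complex I genes lie above 0 after loess, against 5 of 8 with loess on spots well above background.

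Setting the dye balance another way moved the 8 complex I genes at an intensity of 10 or more together with the other genes of that brightness. The median of the 8 was 0.22 after loess, beside 0.20 for 382 other genes of that brightness. With loess fitted on spots well above background it was 0.03 beside -0.0013, with the processed signals 0.04 beside 0.01, and centred on the tested probes with no loess -0.40 beside -0.43. The difference from genes of similar brightness over the 31 genes stayed between 0.01 and 0.07 in every setting run, as the plot by setting shows. In this measure the complex I genes were close to their neighbours, and the part of dye and brightness in the values of single genes was not tested.

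**Figure D5:**
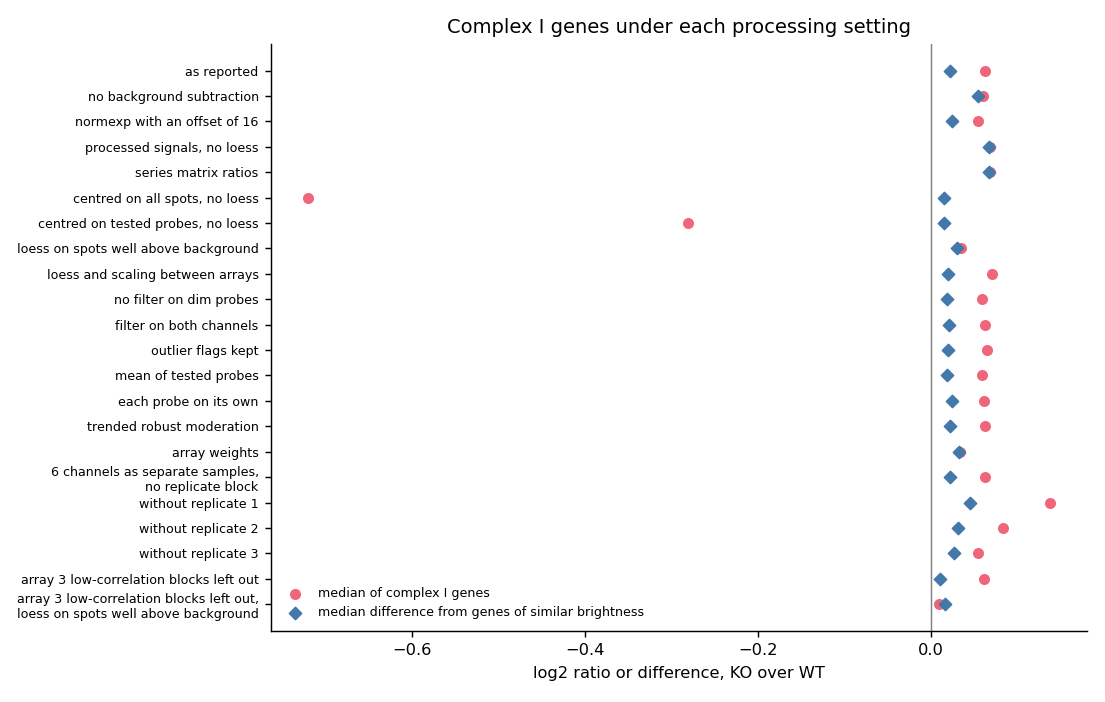
Median log2 ratio of the complex I genes (red circles) and median difference from genes of similar brightness (blue diamonds) under each processing setting, on the log2 scale. The circles run from -0.72 to 0.14, while the diamonds stay between 0.01 and 0.07.

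The upstream sequences of 3 genes are shown because they were given full values above and differ in direction and in a motif known from promoters of respiratory genes. The sequences are from RefSeq (GRCm38.p6) and hold the 250 bases before the annotated gene start, read 5′ to 3′ on the strand of the gene. They are Ndufs6 at chr13:73328483-73328732 on the minus strand, Ndufa11 at chr17:56717512-56717761 on the plus strand and Ndufv1 at chr19:4012756-4013005 on the minus strand. Capitals mark a match on either strand to the NRF1 motif, which is GCGC, then A, any base and GCGC, and Ndufv1 has none in this window.
Ndufs6: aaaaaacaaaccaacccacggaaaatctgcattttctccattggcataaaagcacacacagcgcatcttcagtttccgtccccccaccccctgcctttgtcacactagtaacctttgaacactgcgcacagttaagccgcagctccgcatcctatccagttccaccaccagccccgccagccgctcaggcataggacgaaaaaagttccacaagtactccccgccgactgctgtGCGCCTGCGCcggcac
Ndufa11: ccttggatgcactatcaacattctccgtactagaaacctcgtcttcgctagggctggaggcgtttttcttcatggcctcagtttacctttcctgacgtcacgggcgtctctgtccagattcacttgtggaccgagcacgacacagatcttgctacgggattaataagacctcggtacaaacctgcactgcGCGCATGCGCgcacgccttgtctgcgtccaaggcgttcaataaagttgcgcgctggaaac
Ndufv1: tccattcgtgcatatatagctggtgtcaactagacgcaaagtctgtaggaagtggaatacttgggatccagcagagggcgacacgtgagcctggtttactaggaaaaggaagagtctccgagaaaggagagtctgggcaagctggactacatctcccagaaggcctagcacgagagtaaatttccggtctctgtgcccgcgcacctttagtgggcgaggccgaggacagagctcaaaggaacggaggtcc

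Of the 36 genes 33 had an entry in the promoter table. The NRF1 motif matched 6 of them (Ndufs6, Ndufa5, Ndufa8, Ndufa11, Ndufs5 and Ndufb4), or 18.2%, against 4.23% of 27025 genes with windows of the same length. Searched on both strands, the ETS motif CCGGAAG matched 3 genes (9.09% against 7.83%), the ERR motif AAGGTCA matched 3 (9.09% against 4.70%) and the YY1 motif AAGATGGC matched 0 (against 1.83%). Ndufs5 and Ndufb4 held both the NRF1 and the ERR letters. The 6 genes with an NRF1 match had mean log2 ratios from -0.20 (Ndufa11) to 0.53 (Ndufs6). A match describes the letters of the window and is not evidence of binding.

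Genes around complex I were counted in the same fit, and 0 of the lists reported held a called gene. Ndufa4l2, a relative of Ndufa4, stood at 0.11 (SD 0.10, limma adjusted p = 0.563). Of 20 assembly factors 12 were tested, 5 higher and 7 lower, with a median of -0.04, and Foxred1 was at -0.19 (SD 0.08, limma adjusted p = 0.307). For complexes II to V the medians were 0.03 over 4 genes, 0.09 over 7, 0.05 over 12 and -0.03 over 12. The gene of smallest p in each was Sdhc at 0.17, Uqcr10 at 0.37, Cox8a at 0.53 and Atp5g2 at 0.76 (limma adjusted p = 0.0511). At an unadjusted p under 0.05 in limma, complex III had 3 higher and 1 lower, complex IV 5 higher and complex V 3 higher, where 5.90% of all genes tested were higher and 7.53% lower. The probes of Uqcr10, Cox8a and Atp5g2 had intensities from 11.9 to 13.3, in the range where most genes were positive after loess. The spot of Sdhc lost most of its signal on array 3, from processed WT values of 29137 and 35819 to 126.

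In whole muscle, fewer cells of a type and less RNA per cell cannot be told apart. Red blood cell markers (3 of 9 tested) all had positive means, with a median of 0.21, and 2 of the 3 were above 0 on all arrays (background 17.5%). Their summed processed signal ran from 11138 to 18358 in WT and from 13781 to 32567 in KO. Hba-a1 stood at 0.77 (limma adjusted p = 0.0883). Macrophage and leukocyte markers (7 of 10 tested) all had negative means, with a median of -0.23. By array their median was -0.24, -0.22 and 0.06, and 2 of the 7 were below 0 on all arrays (background 18.3%). Their sums ran from 7721 to 15616 in WT and from 7000 to 10733 in KO, and Cd74 stood at -0.40. The 14 fibre markers, which pool slow and fast genes, had a median of 0.11 with 8 positive. The one of smallest p, Atp2a2, which encodes the calcium pump of slow fibres, stood at -1.14 (SD 0.41, limma adjusted p = 0.0809). The other 5 slow fibre genes tested had positive means, with Myl3 at 0.49, Tnnt1 at 0.40, Tnnc1 at 0.28, Mb at 0.20 and Myl2 at 0.16. The probes of Myl3, Mb, Tnnt1 and Tnnc1 had intensities from 10.3 to 12.8, in the range where most genes were positive after loess. Of the fast fibre genes tested, Atp2a1 stood at -0.65, Mylpf at -0.46, Myh1 at -0.23, Pvalb at -0.15 and Tnnc2 at -0.09. Tnnt3 stood at 0.21, Myh2 at 0.15 and Myl1 at 0.07. Adipocyte markers (7 of 9 tested) had a median of 0.13 with 5 positive, and the one of smallest p was Car3 at -0.23, and endothelial markers (3 of 6) a median of 0.03, where it was Cdh5 at 0.23. The part of these cell types in the values of the complex I genes was not tested.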

How the data were processed

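Each of 3 arrays held 1 WT sample (Cy3) and 1 KO sample (Cy5). The deposited scanner files give spot intensity, local background and quality flags per channel, and the file headers name Feature Extraction 12.0.3.1, whereas the submitters' processing notes name version 11.5. Per the file headers, that software also subtracted background and balanced the dyes to give the deposited processed signals. The authors' series matrix gives a log10 ratio of KO over WT per spot, equal to that of the scanner files within 0.0050. The genome build behind the probes was not given in the sources used here.

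Median spot intensities were corrected with normexp (offset 50, which shrinks the ratios of dim probes) and loess within arrays in limma 3.58.1 (R 4.3.3, reading tables with the package data.table in version 1.17.8), with control and outlier-flagged spots at weight 0. Flagged spots (536, 572 and 1002 on arrays 1 to 3) were left out, and 0 were saturated. Testing needed a value on each of the 3 arrays and 1 channel or both well above background on each, and the brightest such probe stood for its gene. RefSeq (GRCm38.p6) gave names for 28664 of 29472 probes with a RefSeq accession, and the promoter sequences. The mean log2 ratio was tested against 0 with lmFit and eBayes, with Benjamini-Hochberg adjustment over 7424 genes at 0.05. SD values are between arrays.

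Full values are given for up to 5 tested members per direction of smallest unadjusted p, the 3 of highest intensity, and those whose probes differ in sign. Of each other list the gene of smallest p is named, except in the list of further complex I genes, where it is not reported here. The members, lists and rules were chosen with earlier results of these data known. Alternatives changed the background correction, source of the ratio, normalisation, filters, flags, probes, moderation, weights, pairing and arrays. The steps were tested on simulated data with the same noise on each array, a dye trend that was a straight line in brightness and no low blocks. That test cannot speak for the low blocks of array 3 or for the trend left after loess. The array pairs the samples, as 1 WT and 1 KO sample share it per the labels. The labels call the samples biological replicates.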

Additional observations from a re-analysis of the deposited data

How the results depend on the processing

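Over all genes tested, limma called 3 with the reported settings. It called 5 with no background subtraction, 25 with an offset of 16, 85 with trended, robust moderation, 62 with array weights, and 4917 or 2658 with no loess and arrays centred on all spots or on the tested probes. It called 1 with loess on spots well above background, with scaling between arrays, with outlier flags kept, with the mean of a gene's probes and with each probe on its own. It called 0 with the processed signals, the series matrix, no filter on dim probes and the filter on both channels. With 1 array left out it called from 0 to 16 (9 without array 1, 16 without array 2 and 0 without array 3). The pairing within an array was dropped by fitting the 6 channels as separate samples with no replicate block, which called 0 genes and 0 complex I genes, with 1 complex I gene at an unadjusted p under 0.05 in limma. The share of all genes at that unadjusted p was not counted there. Of the alternatives chosen after seeing the data, leaving out the low blocks of array 3 called 100 genes, and doing so with loess on spots well above background called 1. The count of complex I genes called was 31 (all lower) and 16 (all lower) with the 2 centrings, 2 with the low blocks left out, and 0 in the other settings run. With the centrings on all spots and on the tested probes the median of the complex I genes was -0.72 and -0.28. The medians were -0.82 and -0.38 for the core peripheral genes, -0.62 and -0.18 for the accessory peripheral genes, -0.75 and -0.31 for the proximal and -0.77 and -0.33 for the distal membrane genes. The proximal median was also 0.049 with no background subtraction, 0.066 with the processed signals, 0.066 with the series matrix, 0.028 with outlier flags kept, 0.038 with the low blocks left out and -0.044 with loess on spots well above background as well. With 1 array left out it ran from 0.0088 to 0.028. Of the 31 genes 21 had a positive mean as reported, 0 centred on all spots, 4 centred on the tested probes, 20 with the processed signals or the series matrix and 17 with loess on spots well above background. The sign changes given next cover only the 14 genes described with the level of every sample. Centred on all spots they were Ndufs6 -0.65, Ndufb8 -0.72, Ndufa1 -0.64, Ndufa12 -0.82, Ndufs7 -0.93, Ndufa3 -0.90, Ndufa5 -0.67, Ndufb11 -0.91 and Ndufb5 -0.61. Centred on the tested probes they were Ndufs6 -0.21, Ndufb8 -0.28, Ndufa1 -0.20, Ndufa12 -0.38, Ndufs7 -0.49, Ndufa3 -0.46, Ndufa5 -0.23, Ndufb11 -0.47 and Ndufb5 -0.17. With the processed signals they were Ndufa12 -0.012, Ndufs7 -0.086, Ndufc2 0.16, Ndufa3 -0.018 and Ndufb11 -0.039, and with the series matrix Ndufa12 -0.012, Ndufs7 -0.086, Ndufc2 0.16, Ndufa3 -0.018 and Ndufb11 -0.039. With no background subtraction they were Ndufs7 -0.0033, Ndufc2 0.060 and Ndufb11 -0.034. With loess on spots well above background they were Ndufs7 -0.062, Ndufa3 -0.025 and Ndufb11 -0.056, and with the low blocks left out as well Ndufs7 -0.085, Ndufa3 -0.044 and Ndufb11 -0.084. Ndufb11 was also -0.012 with an offset of 16, -0.0064 with outlier flags kept, -0.060 with the mean of its probes, -0.058 with array weights and -0.035 with the low blocks left out. With 1 array left out Ndufa5 ran from -0.067 to 0.17, Ndufb11 from -0.17 to 0.15 and Ndufb5, represented by its other probe without array 3, from -0.047 to 0.21. Mettl21c was lower in every setting compared that gave it a value, which the filter on both channels did not. Testing each probe on its own was left out of the comparison for Mettl21c. Its mean was -6.23 (limma adjusted p = 0.0680) with the processed signals, -6.22 (0.0682) with the series matrix, -2.45 (0.172) with no filter and -2.45 (0.603) with no replicate block. With 1 array left out it ran from -2.69 to -2.21 (limma adjusted p = 0.0557 without array 3). The other gene lists held 0 called genes as reported, 1 with no background subtraction, 2 with an offset of 16, 70 and 41 with the centrings, 6 with trended, robust moderation, 5 with array weights, 8 with the low blocks left out and from 0 to 4 with 1 array left out. The difference of the complex I genes from genes of similar brightness moved by less than the spread between arrays in every setting run. The cause of these changes was not tested. Dim probes limit the values further, since the offset of 50 shrinks their ratios.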

Other observations

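The brightness of array 3 was also compared with that of array 1 at neighbouring positions of the layout. In the 5 blocks where arrays 1 and 3 correlated at under 0.5, the correlation over their spots was 0.30 at the same position. It was 0.39 with the spot 1 row before and 0.38 with the spot 1 row and 1 column before. Outside the low blocks the correlation was 0.94 at the same position, and with those neighbouring spots it was at most 0.01. Of 11341 spots that were bright on arrays 1 and 2, 1104 (9.73%) were at least 4-fold lower on array 3 in both channels, and 84.1% of these lay in low blocks. The same count was 13 of 8957 spots for array 1 and 6 of 8997 for array 2. The spots of Ndufa9, Ndufv2 and the brighter probe of Ndufb4 were among the complex I spots that were dimmer on array 3, with average log2 brightness there minus that on arrays 1 and 2 of -4.36, -2.86 and -5.81, and for Ndufc1 and Ndufb2 it was -1.37 and -1.79.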
